A study of Mus musculus with 13 samples.

Results

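The 10 genes S100a4, S100a6, S100a10, S100a11, S100a13, Anxa1, Anxa2, Lgals1, Lgals3 and Vim were followed through 3 stages of regulatory T cell (Treg) life, with and without the NF-kB subunit c-Rel. They were taken by symbol, and all 10 are among the 22048 genes listed in each of the 3 deposited count tables. All 10 also passed the filter on low counts in every comparison.

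S100 proteins are small calcium-binding proteins that act mostly as pairs, annexins bind acidic membrane lipids when calcium rises, and galectins bind galactose-containing sugars on glycoproteins. S100a10 and Anxa2 form one complex at the plasma membrane, S100a11 binds Anxa1, S100a4 and S100a6 bind cytoskeletal and calcium-signalling partners, and Vim encodes vimentin, an intermediate filament protein of lymphocytes and mesenchymal cells. In T cells, several of these genes are known to be more strongly expressed in activated, effector and tissue-homing cells than in resting ones.

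The 13 RNA-seq libraries came from sorted CD4 T cells of C57BL6/J mice that all carried the Foxp3rfp reporter allele and were either cRel+/+ (wild type) or cRel-/- (knockout). Pre-Tregs, thymic cells on the way to becoming Tregs, gave 2 wild-type and 3 knockout libraries, thymic de novo Tregs gave 2 and 2, and splenic Tregs gave 2 and 2. The ages of the mice, the sort gates, the cells from which c-Rel was removed and whether animals were pooled were not stated in the labels. No label says that libraries of a group came from separate animals, so p-values measure the spread between libraries, which may be technical.

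Library totals ran from 13656304 to 29866696 counts in pre-Tregs, from 25122095 to 28235996 in de novo Tregs and from 32291272 to 35114430 in splenic Tregs, and 3 counts, the floor used for detection, corresponded to between 0.0854 and 0.228 CPM (counts scaled to the library total). Foxp3, which defines Tregs, lay between 22.2 and 109 CPM in pre-Treg libraries and between 658 and 894 CPM in the others. Rel, the targeted gene, was read in every knockout library. It measured 108 and 107 CPM in wild-type pre-Tregs and 61.6, 54.5 and 71.1 in knockout pre-Tregs, 99.1 and 96.7 against 87.3 and 94.6 in de novo Tregs, and 45.5 and 54.9 against 42.1 and 44.4 in splenic Tregs. Every knockout library was below both wild-type libraries of its stage, but no stage's difference passed the test (adjusted p = 0.552, 0.665 and 0.521), and which part of Rel was removed is not given in the sources used here. Knockout pre-Treg replicate 2 stood apart from the other 4 pre-Treg libraries: Actg1, a cytoplasmic actin, was at 372 CPM there and between 1.67 and 3.58 CPM in the others, and 4 genes, none of them among the 10, were over 20-fold higher. In de novo and splenic Tregs Actg1 lay between 262 and 370 CPM. For Actg1 it was therefore the other 4 pre-Treg libraries, both wild-type ones included, that differed from all the rest. The reason was not tested. Some results that rest on knockout pre-Treg replicate 2 are also given without it, and others only with it.

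The genes sit on 6 chromosomes (GRCm38, coordinates from the deposited table). S100a13 (chr3:90514435-90524581), S100a4 (chr3:90603771-90606045), S100a6 (chr3:90612882-90624181), S100a11 (chr3:93520488-93526287) and S100a10 (chr3:93555080-93564643) lie on the plus strand of chromosome 3. Anxa1 is at chr19:20373428-20390944, Anxa2 at chr9:69453620-69491795, Lgals1 at chr15:78926725-78930465, Lgals3 at chr14:47367751-47386160 and Vim at chr2:13573927-13582826. S100a4 shares 302 exon bases with Gm42674, which had 0 counts in every pre-Treg library. Anxa2 shares 98 with the opposite-strand gene Gm16144, which had 2 to 6 counts in the pre-Treg libraries. Counts of these neighbours in the other stages were not examined. How reads over shared bases were counted, and whether strand was used, is not given in the sources used here.

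Since c-Rel is a DNA-binding factor, the promoters of 4 genes that were lower in both knockout de novo libraries are shown, 3 of them called there and Lgals3 called in the spleen; the windows of Vim and Anxa1 lie wholly in deposited exons and are not printed. RefSeq (GRCm38.p6) held the window of 250 bases before the start for 8 of the 10 genes, S100a10 and Lgals1 excepted. The 4 printed here leave out bases that lie in a deposited exon, and that of Lgals3 lies inside the deposited span of the gene. In S100a11 the capitals mark AP-1 motifs (TGANTCA, searched on both strands). In Lgals3 they mark a match to the NF-kB pattern searched, GGGRNNYYCC (R is A or G, Y is C or T, N is any base). S100a4 and S100a6 held neither.
S100a4 (chr3:90603520-90603769, plus strand): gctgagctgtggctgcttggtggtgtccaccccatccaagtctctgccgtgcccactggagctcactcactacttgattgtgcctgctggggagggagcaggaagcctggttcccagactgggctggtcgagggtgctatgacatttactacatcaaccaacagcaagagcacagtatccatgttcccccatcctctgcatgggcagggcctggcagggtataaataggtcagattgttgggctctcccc
S100a6 (chr3:90612644-90612881, plus strand): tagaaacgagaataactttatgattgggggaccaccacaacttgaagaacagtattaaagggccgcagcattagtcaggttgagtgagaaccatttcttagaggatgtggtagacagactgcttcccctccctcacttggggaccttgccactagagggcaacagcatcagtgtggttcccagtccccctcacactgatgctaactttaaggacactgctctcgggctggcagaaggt
S100a11 (chr3:93520246-93520487, plus strand): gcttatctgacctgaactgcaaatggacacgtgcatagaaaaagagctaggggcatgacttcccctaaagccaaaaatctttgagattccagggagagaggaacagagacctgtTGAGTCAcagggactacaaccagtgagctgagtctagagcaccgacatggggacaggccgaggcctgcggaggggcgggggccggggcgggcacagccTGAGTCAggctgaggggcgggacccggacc
Lgals3 (chr14:47373610-47373812, plus strand): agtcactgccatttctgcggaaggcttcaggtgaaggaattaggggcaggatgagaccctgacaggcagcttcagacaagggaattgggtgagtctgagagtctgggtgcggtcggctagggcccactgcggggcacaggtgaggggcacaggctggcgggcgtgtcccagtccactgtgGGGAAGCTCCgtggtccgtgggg
The Lgals3 match, GGGAAGCTCC, begins 70 bases before the RefSeq start, and the S100a11 motifs, TGAGTCA in both cases, begin 136 and 38 bases before it. Among the 8 windows, NF-kB matches were found in Lgals3 and, at 3 positions of which 2 overlap, in Vim; AP-1 motifs were found in S100a11 and Anxa2. Of 32851 RefSeq windows of the same length, 7.25% held an NF-kB match and 6.75% an AP-1 motif. A TATAAA motif was present in S100a4, 31 bases before the start, and also in Anxa1, Anxa2 and Vim, against 12.4% of all windows. These matches are letters in a window and show no binding.

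Levels differed widely among the 10 genes. Scaled by gene length as well as library size (RPKM), S100a10 and Lgals1 were the most abundant in every group, and Anxa1 was the least. In wild-type pre-Tregs Lgals1 averaged 186 ± 14.2 RPKM (SD, n = 2), S100a10 153 ± 14.2, Vim 75.8 ± 6.72 and S100a13 55.1 ± 1.19. S100a11 (31.1 ± 5.05) and Anxa2 (29.7 ± 6.41) were indistinguishable within their spread. S100a6, Lgals3, S100a4 and Anxa1 followed at 4.78 ± 0.392, 3.92 ± 0.115, 2.02 ± 0.460 and 0.816 ± 0.206. In wild-type splenic Tregs the order had changed: S100a10 reached 428 ± 20.2 RPKM and Lgals1 372 ± 10.1, S100a11 (115 ± 0.310) had passed S100a13 (110.4 ± 1.95) and Vim (100.3 ± 0.373), and S100a6 (46.1 ± 0.954) and S100a4 (24.7 ± 1.00) had left Lgals3 (6.18 ± 1.29) behind. Among the wild-type groups S100a4 and S100a6 spanned the widest range, and Vim and Anxa2 a narrow one. All values that follow are CPM, on which each gene is compared only with itself.

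**Figure D1:**
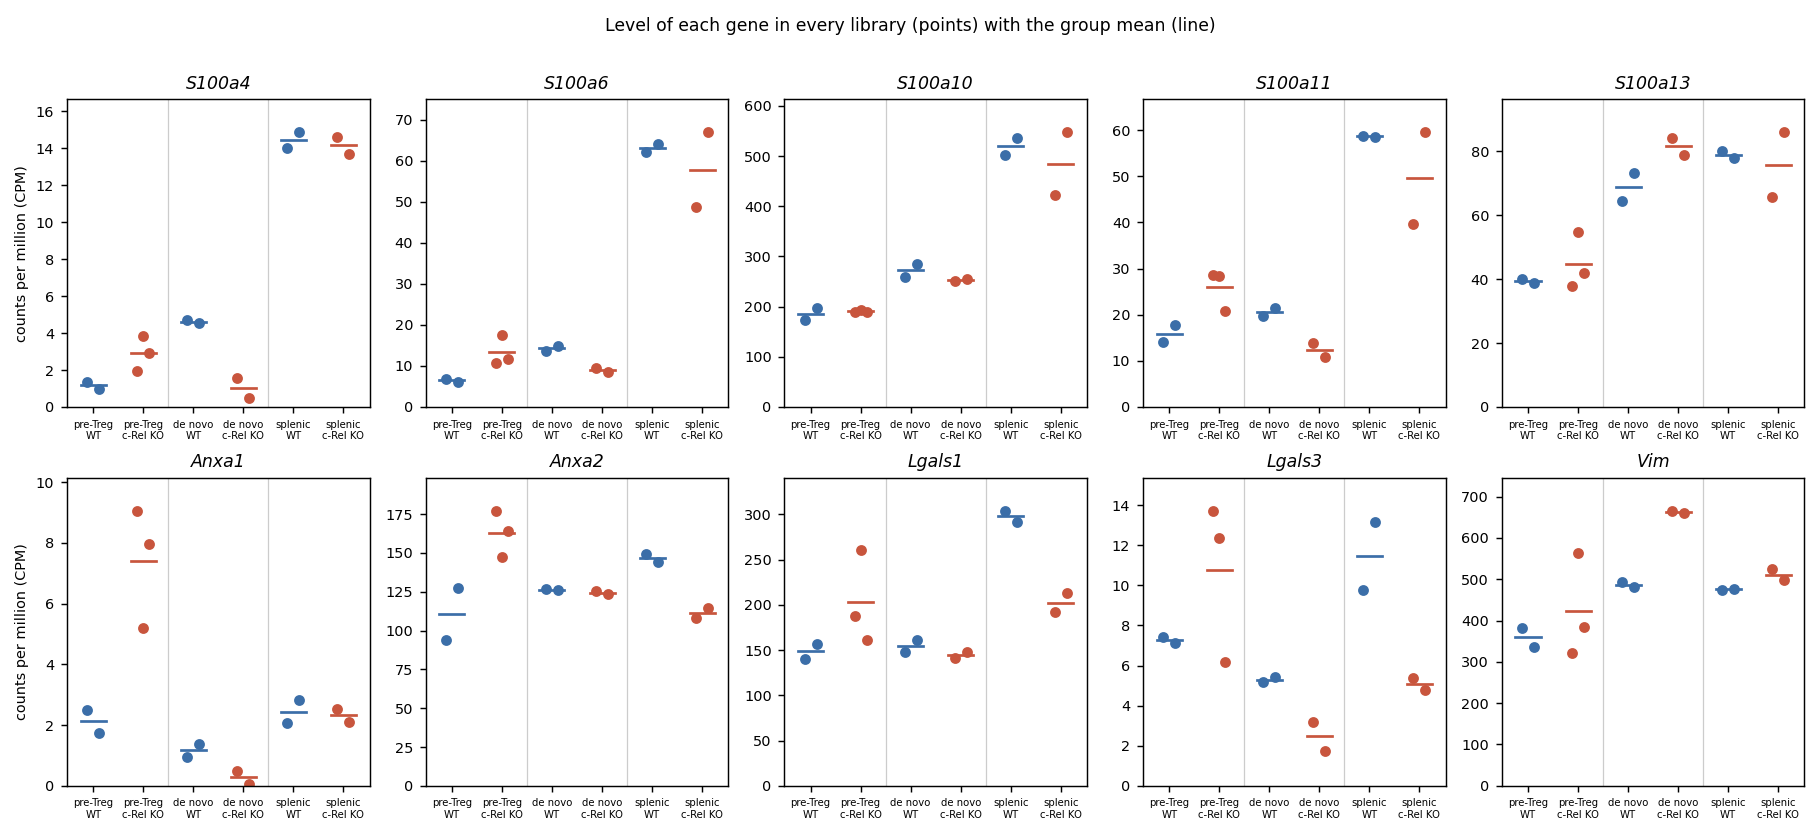
Level of each of the 10 genes in every library, in CPM (vertical axis, from 0, scaled per gene), by stage and genotype (horizontal axis; WT wild type, KO knockout); points are libraries and lines group means. S100a4, S100a6, S100a10 and S100a11 are highest in splenic Tregs, as is Lgals1 in wild type, and in de novo Tregs both knockout points of S100a4, S100a6, S100a11 and Lgals3 lie below both wild-type points.

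The first question was how the genes behave along the wild-type stages. Genes were tested with edgeR over all genes, and are said to rise or fall where the Benjamini-Hochberg adjusted p is under 0.05. Stage coincides with count table, and spleen with a change of organ, so these cannot be told apart in any comparison of stages. From pre-Tregs to de novo Tregs, 4 of the 10 rose and 0 fell, all 4 of them S100 genes, where 30.7% of all 13058 genes tested changed, 16.1% up and 14.7% down. The median log2 fold change of the 10 was 0.56, against 0.00 for all genes.

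S100a4, a regulator of non-muscle myosin and cell motility, measured 1.37 and 0.988 CPM in the pre-Treg libraries and 4.70 and 4.53 in de novo Tregs, with no overlap (log2 fold change 2.12, SE 0.47, adjusted p = 0.00625). S100a6 went from 6.91 and 6.15 to 13.7 and 14.8 CPM (1.28, SE 0.26, adjusted p = 0.00427). S100a10, the partner of annexin A2, went from 173 and 198 to 259 and 285 CPM (0.71, SE 0.14, adjusted p = 0.00401), and S100a13, which takes part in the release of proteins that lack a signal peptide, from 40.0 and 38.8 to 64.3 and 73.1 CPM (0.96, SE 0.20, adjusted p = 0.00452). The remaining S100 gene, S100a11, was higher in both de novo libraries without passing the test (0.53, SE 0.23, adjusted p = 0.0932). Vim (0.59, adjusted p = 0.0579) and Anxa2 (0.35, adjusted p = 0.0787) were near the threshold, while Lgals1 (0.21), Lgals3 (-0.30) and Anxa1 (-0.71) were not (adjusted p = 0.429, 0.543 and 0.316). The libraries did not overlap for 8 of the 10 genes, 6 higher and 2 lower, where 30.3% and 44.8% of all genes did the same. Leaving out 1 library gave 2 to 4 calls: S100a10 (adjusted p = 0.0535) fell out without wild-type pre-Treg replicate 1, S100a4 (0.0625) without replicate 2, where Anxa2 passed instead (0.0421), and S100a10 and S100a13 (0.053 and 0.0516) without wild-type de novo replicate 2. Over all genes these fits had 1274 to 1775 calls in place of 4015.

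From de novo to splenic Tregs, 5 of the 10 rose in wild type and 0 fell, where 7.45% of all genes changed, 3.5% up and 3.95% down. The median log2 fold change was 0.98, against 0.00 for all genes. S100a6 rose from 13.7 and 14.8 to 62.1 and 64.0 CPM, 4.33-fold (log2 2.12, SE 0.25, adjusted p = 4.25e-04). S100a11, a partner of annexin A1, rose from 19.6 and 21.5 to 58.8 and 58.6 CPM (1.48, SE 0.23, adjusted p = 0.00190), and S100a10 from 259 and 285 to 502 and 537 CPM (0.91, SE 0.14, adjusted p = 0.00242). For each of these genes the 2 splenic libraries lay close together and above both thymic ones.

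S100a4 reached 14.03 and 14.9 CPM (1.62, SE 0.40, adjusted p = 0.0271), and Lgals1, the secreted galectin-1 that cross-links T cell surface glycans, went from 148 and 161 to 303 and 292 CPM (0.92, SE 0.20, adjusted p = 0.0147). Both of these calls were lost on leaving out any one of the 4 libraries (adjusted p from 0.118 to 0.180 for S100a4 and from 0.0802 to 0.148 for Lgals1), and that of S100a10 was lost without wild-type de novo replicate 1 (0.0507), so the count of calls ran from 2 to 3, and that over all genes from 257 to 377 in place of 973. Lgals3 (1.09, adjusted p = 0.0856) and Anxa1 (1.04, adjusted p = 0.261) were higher in both splenic libraries without passing the test, and S100a13 (0.17), Anxa2 (0.19) and Vim (-0.06) lay close to no change. S100a4, S100a6 and S100a10 thus passed in both steps, S100a13 in the first, and S100a11 and Lgals1 in the second. The libraries did not overlap for any of the 10 genes, 9 higher and Vim lower, against 36.7% and 30.7% of all genes.

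In knockout cells the step from pre-Tregs to de novo Tregs had 7 calls, 3 up and 4 down, where 32.4% of all genes changed, 15.4% up and 17% down. S100a10 (log2 0.61, SE 0.13, adjusted p = 0.00356), S100a13 (1.05, SE 0.18, adjusted p = 7.96e-04) and Vim (0.84, SE 0.20, adjusted p = 0.00721) rose. S100a4 (-1.35, SE 0.42, adjusted p = 0.0273), S100a11 (-0.88, SE 0.21, adjusted p = 0.00775), Anxa1 (-4.53, SE 0.59, adjusted p = 1.34e-04) and Lgals3 (-1.93, SE 0.36, adjusted p = 0.00155) fell. Anxa1, the annexin best known for damping inflammation, measured 9.04, 5.20 and 7.96 CPM in the pre-Treg libraries and 0.478 and 0.0742 in de novo Tregs, which are 12 and 2 counts. The S100a4, S100a11 and Vim calls were lost without knockout de novo replicate 2 (adjusted p = 0.240, 0.0970 and 0.0590), and that of Vim also without replicate 1 (0.0552). With replicate 2 as the one knockout pre-Treg library, S100a6 (-0.81, adjusted p = 0.00686) and Lgals1 (-0.70, adjusted p = 5.27e-04) fell as well. Over all genes, calls went from 4228 to 1960 and 1860 without knockout de novo replicate 1 or 2, and to 6534 without knockout pre-Treg replicate 2.

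The knockout step from de novo to splenic Tregs gave 5 rises and 0 falls, where 12.9% of all genes changed, 6.48% up and 6.39% down. S100a4 rose from 1.55 and 0.482 to 14.6 and 13.7 CPM, 13.6-fold (log2 3.77, SE 0.45, adjusted p = 2.53e-04), S100a6 from 9.55 and 8.42 to 48.6 and 66.9 CPM (2.64, SE 0.26, adjusted p = 5.03e-05), and S100a11 from 13.9 and 10.8 to 39.6 and 59.5 CPM (1.97, SE 0.23, adjusted p = 2.03e-04). S100a10 (0.89, SE 0.14, adjusted p = 0.00170) and Anxa1 (3.03, SE 0.59, adjusted p = 0.00548) also rose. All 5 passed on leaving out any one of the 4 libraries, while the log2 fold change of S100a4 ran from 3.17 without knockout de novo replicate 2 to 4.83 without replicate 1. Over all genes such fits had 619 to 1115 calls in place of 1681. The plot of stage effects shows both genotypes side by side. Within each genotype the 2 steps share the de novo libraries. Differences between the genotypes are covered by the interaction test given further on, in which edgeR called 0 and DESeq2 6 of the 10.

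**Figure D2:**
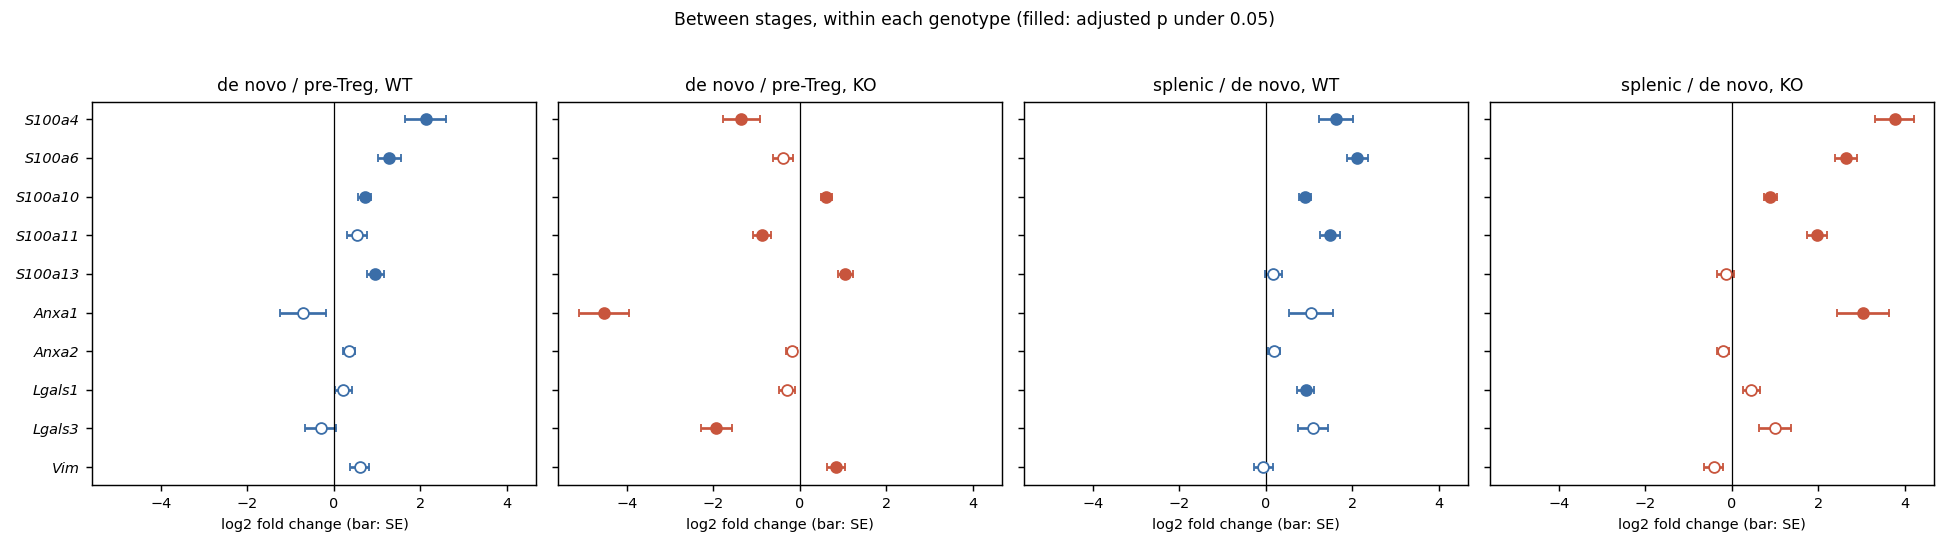
Log2 fold change (horizontal axis; bars are the SE of the fit) of each gene between stages, in wild-type (WT, blue) and knockout (KO, red) cells; filled points have an adjusted p under 0.05. S100a4, S100a11, Anxa1 and Lgals3 lie left of 0 from pre-Treg to de novo in knockout cells, at -1.35, -0.88, -4.53 and -1.93, and S100a4 and S100a6 lie farthest right from de novo to splenic in wild type, at 1.62 and 2.12.

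The second question was what the absence of c-Rel changes within each stage. In de novo Tregs 3 of the 10 genes fell in the knockout and 1 rose, where 6.46% of the 11855 genes tested changed, 3.54% down and 2.92% up. The falls were S100a4, S100a6 and S100a11, and the rise was Vim. The median log2 fold change of the 10 was -0.37, against 0.00 for all genes. For 8 genes both knockout libraries were below both wild-type libraries, and for Vim and S100a13 both were above, where 27.1% and 20.7% of all genes did so.

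S100a4 measured 4.70 and 4.53 CPM in wild type and 1.55 and 0.482 in the knockout, a 4.52-fold lower level (log2 -2.18, SE 0.44, adjusted p = 0.0125). The knockout values correspond to 39 and 13 counts, and the lower one weighs on the size of the difference: it was -1.56 without knockout replicate 2 and -3.22 without replicate 1. The S100a4 call held under all 11 alternatives run (adjusted p from 3.55e-05 to 0.0419). S100a6 was 13.7 and 14.8 CPM in wild type and 9.55 and 8.42 in the knockout (-0.65, SE 0.17, adjusted p = 0.0397), and S100a11 was 19.6 and 21.5 against 13.9 and 10.8 CPM (-0.73, SE 0.16, adjusted p = 0.0199). S100a6 missed the threshold on leaving out any one library (adjusted p from 0.0573 to 0.165) and with DESeq2 (0.0528), and S100a11 without wild-type replicate 2 (0.0737) or knockout replicate 2 (0.102).

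Vim moved the other way, from 493 and 481 CPM to 664 and 660.4 (0.46, SE 0.07, adjusted p = 0.00184), a 1.37-fold rise with little spread in either group. Beside it, 10 rows marking stroma, epithelium and endothelium summed to 231 and 230.8 CPM in wild type and 309 and 308 in the knockout, with 5 and 7 rows at 0 in wild type and 5 and 5 in the knockout. Most of that sum was Pecam1, which T cells also express (212 and 215 against 279 and 278 CPM), while Pdgfra, a fibroblast marker, had 0 counts in all 4 libraries and Col3a1 at most 1. Of 3 tested genes of the list 2 rose, Epcam (0.80, adjusted p = 0.00359) and Pecam1 (0.40, adjusted p = 0.00693); the part of such cells in the Vim difference was not tested. Lgals3, galectin-3, measured 5.17 and 5.42 CPM in wild type and 3.18 and 1.74 in the knockout and narrowly missed the threshold (-1.09, SE 0.31, adjusted p = 0.0641). It passed without knockout replicate 1 (0.00834), without the count filter (0.0125) and with upper-quartile scaling (0.0479). Anxa1 was 0.947 and 1.38 CPM against 0.478 and 0.0742, few counts for any comparison (-2.07, SE 0.71, adjusted p = 0.130). The abundant genes S100a10 (-0.09), Anxa2 (-0.01) and Lgals1 (-0.08) were close to 0, each with an SE of 0.08, and S100a13 was slightly higher (0.26, SE 0.10, adjusted p = 0.159). Anxa2 averaged 126 ± 0.551 CPM in wild type and 124 ± 1.54 in the knockout (SD, n = 2 each). When the spread was shared over all 6 groups, S100a4 was the one call of the 4 to remain; S100a6, S100a11 and Vim had adjusted p = 0.466, 0.274 and 0.712.

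The same de novo knockout libraries had less RNA of genes that mark Tregs that have returned to the thymus from the periphery (Ccr6, Il1r2, Klrg1, Ccr2, Cxcr3, Itgae, Nkg7 and Gzmb). Of these 8 genes 6 fell and 0 rose, they summed to 533 and 554 CPM in the wild-type and 147 and 125 in the knockout libraries, and none was at 0. Nkg7 alone went from 166 and 163 CPM to 23.1 and 21.1. In splenic Tregs the same 8 genes summed to 566 and 567 CPM in wild type and 502 and 510 in the knockout. There 2 of them fell and 0 rose, with 5 log2 fold changes negative and 3 positive. In de novo Tregs the summed level of 9 CD8 T and NK cell markers was 224 and 217 against 81.1 and 64.6 CPM. Of these markers Nkg7 and Gzmb are on both lists, and Nkg7 made up most of the wild-type sum. Of the 8 tested, 2 fell, and 5 had a negative and 3 a positive log2 fold change (median -0.15). The 21 myeloid and dendritic rows summed to 165 and 160 against 152 and 128 CPM, most of it Cst3. Of 14 tested genes of that list 13 were negative and 1 positive (median -0.83). With edgeR 0 of them passed, 3 having an unadjusted p under 0.05. The part of these cells in the S100 differences was not tested. In bulk RNA, fewer cells with a given transcript and less transcript per cell cannot be told apart.

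In splenic Tregs Lgals1 and Lgals3 fell in the knockout, none rose, and 1.37% of the 12264 genes tested changed, 0.758% downwards and 0.612% upwards. Lgals1 measured 303 and 292 CPM in wild type and 192 and 213 in the knockout (log2 -0.55, SE 0.10, adjusted p = 0.0457), and Lgals3 9.78 and 13.2 against 5.38 and 4.77 CPM (-1.17, SE 0.21, adjusted p = 0.0481). Neither pair overlapped. Anxa2 was also lower in both knockout libraries, at 149 and 144 against 108 and 115 CPM, without passing the test (-0.39, SE 0.10, adjusted p = 0.120), and passed with DESeq2 (0.0309). Counting non-overlap, 3 genes were lower and 1, Vim, higher, where 23.5% and 22.9% of all genes were.

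The S100 genes that differed in de novo Tregs did not pass the test in the spleen. S100a4 was 14.03 and 14.9 CPM in wild type and 14.6 and 13.7 in the knockout (-0.03, SE 0.15, adjusted p = 0.961). For S100a6 (62.1 and 64.0 against 48.6 and 66.9 CPM), S100a11 (58.8 and 58.6 against 39.6 and 59.5), S100a10 (502 and 537 against 421 and 547) and S100a13 (79.9 and 78.0 against 65.8 and 85.9), the first knockout library was the lowest of the 4 and the second the highest. The result therefore depends on single libraries. Without knockout replicate 2 there were 6 falls, those of S100a6 (adjusted p = 0.0178), S100a10 (0.00566), S100a11 (0.00191) and Anxa2 (0.00176) joining the galectins, while calls over all genes went from 168 to 1548, 764 of them falls. Without knockout replicate 1, Anxa2 passed (0.00611) beside the galectins, with 2508 calls over all genes. Lgals1 missed the threshold without wild-type replicate 1 (0.299) or 2 (0.160), Lgals3 without wild-type replicate 2 (0.153) or with limma-voom (0.0527), and both with the spread shared over the 6 groups (0.375 and 0.235).

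Myeloid cells express galectin-3 strongly, and markers of these cells differed in the same direction in the spleen. Of 19 tested genes of the myeloid and dendritic list, 17 had a negative and 2 a positive log2 fold change (median -1.17) and 0 passed with edgeR, 7 having an unadjusted p under 0.05; DESeq2 and limma-voom each called 1. The summed level of the list's 21 rows was 207 and 249 CPM in wild type and 174 and 141 in the knockout, with 1 and 2 rows at 0 in wild type and 3 and 8 in the knockout. Lyz2 was at 18.6 and 46.2 against 17.1 and 1.30 CPM, and Csf1r at 12.985 and 13.8 against 4.21 and 0. In the same 2 knockout libraries Lgals3 was at 5.38 and 4.77 CPM. Of 9 CD8 T and NK cell genes 8 were negative and 1, Nkg7, fell, with sums of 197 and 203 against 114 and 114 CPM. Nkg7 and Gzmb are also on the recirculating Treg list given for de novo Tregs. Of 7 tested B and plasma cell genes 6 were positive and 1, Cd79b, rose, with sums of 42.6 and 55.1 against 105 and 63.5 CPM. The part of such cells in the galectin differences was not tested.

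In pre-Tregs 0 of the 10 genes passed the edgeR test, as did 0 of all 14746 genes (0%), with 5 of the 10 at an unadjusted p under 0.05, 1 called by DESeq2 and 0 by limma-voom. The fold changes were nonetheless all positive, with a median of 0.55 against 0.03 for all genes, and for 6 genes all 3 knockout libraries lay above both wild-type libraries, where 15.3% of all genes did so and 11.5% did the reverse. For S100a4, S100a6 and S100a11 the direction was opposite to that in de novo Tregs. Anxa1 was 2.51 and 1.75 CPM in wild type and 9.04, 5.20 and 7.96 in the knockout (log2 1.77, SE 0.40, adjusted p = 0.565). It was the gene called by DESeq2 (0.0173), and it passed in edgeR without knockout replicate 2 (0.0484). S100a4 was 1.37 and 0.988 against 1.94, 3.87 and 2.9 CPM (1.30, SE 0.52, adjusted p = 0.720), S100a6 6.91 and 6.15 against 10.6, 17.5 and 11.8 (1.03, SE 0.34, adjusted p = 0.720), and S100a11 14.1 and 17.7 against 28.7, 28.5 and 20.7 (0.70, SE 0.26, adjusted p = 0.720).

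Anxa2 was also higher in each knockout pre-Treg library, at 93.7 to 128 CPM in wild type and 147 to 177 in the knockout (0.54, SE 0.19, adjusted p = 0.720), and so was Lgals1 (0.45, SE 0.25, adjusted p = 0.724). Lgals3, S100a10, S100a13 and Vim overlapped between genotypes. Knockout replicate 2 gave the highest value of S100a4, S100a6, S100a13, Lgals1 and Vim, and without it Vim (-0.07), S100a13 (-0.03) and S100a10 (-0.01) turned slightly negative. Markers of other cell types varied in these libraries too. The immature thymocyte list summed to 717 and 923 CPM in wild type and 1947, 750.0 and 1252.5 in the knockout, the myeloid and dendritic list to 97.1 and 166 against 289, 157 and 169, and Lyz2 alone ran from 0.911 to 60.2 CPM. Of 17 tested myeloid genes 14 were positive, with a median of 1.60. Knockout replicate 1, which had the most Lyz2 and the highest sums of both lists, also had the most Anxa1 and Lgals3. In wild-type replicates 1 and 2 and knockout replicates 2 and 3, the myeloid sums were 97.1, 166, 157 and 169 CPM. Anxa1 was at 2.51, 1.75, 5.20 and 7.96 CPM in these libraries, and Lgals3 at 7.44, 7.14, 12.4 and 6.17. The part of such cells was not tested. The common coefficient of variation was 0.284 in pre-Tregs, against 0.0939 in de novo and 0.131 in splenic Tregs, so the same fold change was less likely to pass there.

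**Figure D3:**
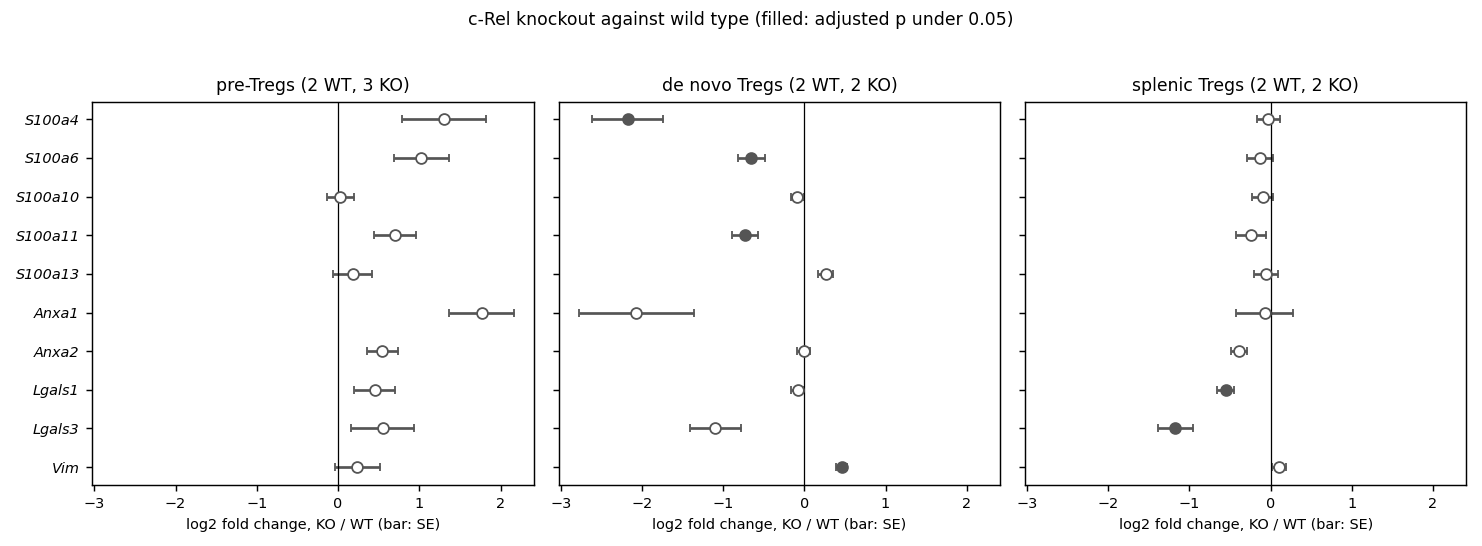
Log2 fold change of knockout over wild type (horizontal axis; bars are the SE of the fit) for each gene in each stage; filled points have an adjusted p under 0.05. All 10 points lie right of 0 in pre-Tregs, 8 of 10 lie left of 0 in de novo Tregs with S100a4 at -2.18, and in splenic Tregs Lgals1 and Lgals3 are the filled points.

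Whether the knockout effect differed between stages was tested directly. In the joint test of genotype by stage 0 of the 10 genes passed with edgeR, where 0.161% of all genes did, and 7 had an unadjusted p under 0.05. The adjusted p was lowest for S100a4 (0.0746), Anxa1 (0.102), S100a6 (0.106), Anxa2 (0.115) and S100a11 (0.128). DESeq2 called 6 of the 10 and limma-voom 0. Without knockout pre-Treg replicate 2 there were 5 calls, without knockout pre-Treg replicate 1 there were 2, and with replicate 2 as the one knockout pre-Treg library there were 8. Over all genes the calls in these 3 fits were 296, 214 and 3538, in place of 21. Between de novo and pre-Tregs the knockout effect on S100a4 was lower by a log2 difference of -3.48 (SE 0.63, adjusted p = 0.0577), on Anxa1 by -3.82 (SE 0.77, adjusted p = 0.0804), on S100a6 by -1.67 (SE 0.35, adjusted p = 0.0934) and on S100a11 by -1.41 (SE 0.31, adjusted p = 0.107). For this pair 0 of the 10 passed with edgeR and all libraries, where 0.0842% of all genes did. Over the 16 alternatives run, the difference ran from -4.53 to -2.87 for S100a4 and from -5.62 to -3.03 for Anxa1. For S100a6 it ran from -2.10 to -1.38, and for S100a11 from -1.60 to -1.25. Between spleen and pre-Tregs Anxa2 came closest (-0.92, SE 0.19, adjusted p = 0.0679), and between spleen and de novo Tregs S100a4 did (2.15, SE 0.58, adjusted p = 0.330); 0.214% and 0.00766% of all genes passed for these pairs and 0 of the 10. With 1 genotype coefficient over all 3 stages, 0 of the 10 genes passed with edgeR, DESeq2 or limma-voom and 0 had an unadjusted p under 0.05, where 0.85% of all genes passed with edgeR. Without the pre-Tregs 2 of the 10 passed, while calls over all genes went from 111 to 649.

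The genes did not vary as one block. Over the 13 libraries, the correlation of each gene's log-CPM with the mean of the other members was 0.934 for S100a6, 0.921 for S100a11, 0.899 for Lgals1, 0.887 for S100a4 and 0.765 for S100a10. It was lower for S100a13 (0.455), Lgals3 (0.323), Anxa2 (0.295), Vim (0.142) and Anxa1 (0.125). These values describe libraries that share stage, table and organ, and carry no test. Among 13048 other genes, those most like the mean of the 10 were Alad (r = 0.980), an enzyme of haem synthesis, Cluap1 (0.958), Fbxw8 (0.957), Gpx1 (0.955), a glutathione peroxidase, and 1600002K03Rik (0.948). Alad averaged 20.5 and 34.4 CPM in wild-type and knockout pre-Tregs, 31.7 and 24.9 in de novo Tregs and 60.0 and 42.8 in splenic Tregs, the same order of groups within each stage as S100a6.

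Relatives of the 10 genes were taken from lists. In de novo Tregs, where 6.46% of all genes changed, 0 of 4 tested further S100 genes, 0 of 7 further annexins and 0 of 5 further galectins passed with edgeR, and DESeq2 and limma-voom called none either; 2, 1 and 3 of them had an unadjusted p under 0.05. Anxa6 (0.19, adjusted p = 0.135) and Anxa5 (0.15, adjusted p = 0.318), the abundant annexins, had small positive values, and Lgals9 was at 0.04 (adjusted p = 0.849). Of 12 tested binding partners 1 fell, Ahnak, a giant scaffold that binds the S100a10 and annexin A2 complex (-0.61, SE 0.12, adjusted p = 0.00964). Of 22 cytoskeletal genes 3 fell and 1 rose: Lmna, the nuclear lamin (-0.90, SE 0.13, adjusted p = 0.00144), Tagln2, an actin-bundling protein (-0.48, SE 0.09, adjusted p = 0.0104), and Emp3, a membrane protein (-0.37, SE 0.08, adjusted p = 0.0214), fell, and Capg, an actin-capping protein (0.57, SE 0.10, adjusted p = 0.00609), rose.

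In splenic Tregs 0 of the 5 further S100 genes, 6 annexins and 5 galectins tested passed with edgeR, DESeq2 or limma-voom (0, 0 and 2 with an unadjusted p under 0.05), and Ahnak was the only call of the 13 partners, now in the opposite direction (0.70, SE 0.11, adjusted p = 0.0345). Ahnak averaged 70.4 ± 4.19 CPM in wild-type and 45.7 ± 6.70 in knockout de novo Tregs, and 116 ± 3.15 and 188 ± 18.1 in splenic Tregs (SD, n = 2 each). No gene of these lists passed in pre-Tregs with edgeR, DESeq2 or limma-voom, 4 of the 22 cytoskeletal genes and 0 of the others having an unadjusted p under 0.05.

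Between stages, calls of the relatives went in both directions. From pre-Tregs to de novo Tregs in wild type, where 30.7% of all genes changed, 2 of 7 annexins rose, Anxa11 (0.77, adjusted p = 0.0123) and Anxa4 (1.09, adjusted p = 0.0137), and of 5 galectins Lgals4 rose (0.76, adjusted p = 0.00927) and Lgalsl fell (-1.35, adjusted p = 0.00843). Of 13 partners 3 rose and 2 fell, led by Ahnak (2.49, adjusted p = 1.58e-05) and Cd7, a galectin-1 receptor (1.07, adjusted p = 0.00990), against Ptprc, the CD45 phosphatase (-0.87, adjusted p = 0.00602), and Cacybp, which binds S100a6 (-0.89, adjusted p = 0.0142). Of 22 cytoskeletal genes 7 rose and 1 fell, led by Capg (2.54, adjusted p = 1.58e-05) and Plec, which links vimentin filaments (0.96, adjusted p = 0.00144), against Rdx (-0.66, adjusted p = 0.0372).

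From de novo to splenic Tregs in wild type, where 7.45% of all genes changed, Tagln2 rose (1.22, adjusted p = 5.57e-04), and Lgals4 (-0.86, adjusted p = 0.0112) and Plaur, the urokinase receptor (-3.26, adjusted p = 0.00155), fell. In the knockout, the first step included rises of Capg (2.76), Plec (1.31), Ahnak (1.40), Cd7 (1.32), Anxa4 (0.97), Anxa11 (0.55) and Lgals4 (0.96) and falls of Lmna (-1.66), Tagln2 (-0.54), Anxa3 (-4.01) and Cacybp (-0.62), all with an adjusted p of at most 0.0423. The second included rises of Tagln2 (1.58), Ahnak (2.00) and Lmna (1.09) and falls of Anxa5 (-0.50), Lgals4 (-0.82), Lgals9 (-0.43), Plaur (-2.58), Cd7 (-1.25) and Tuba4a (-0.86), with an adjusted p of at most 0.0388. The further S100 genes, 5 tested in each step, had 0 calls in either wild-type step with edgeR, DESeq2 or limma-voom; 0 and 1 had an unadjusted p under 0.05.

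**Figure D4:**
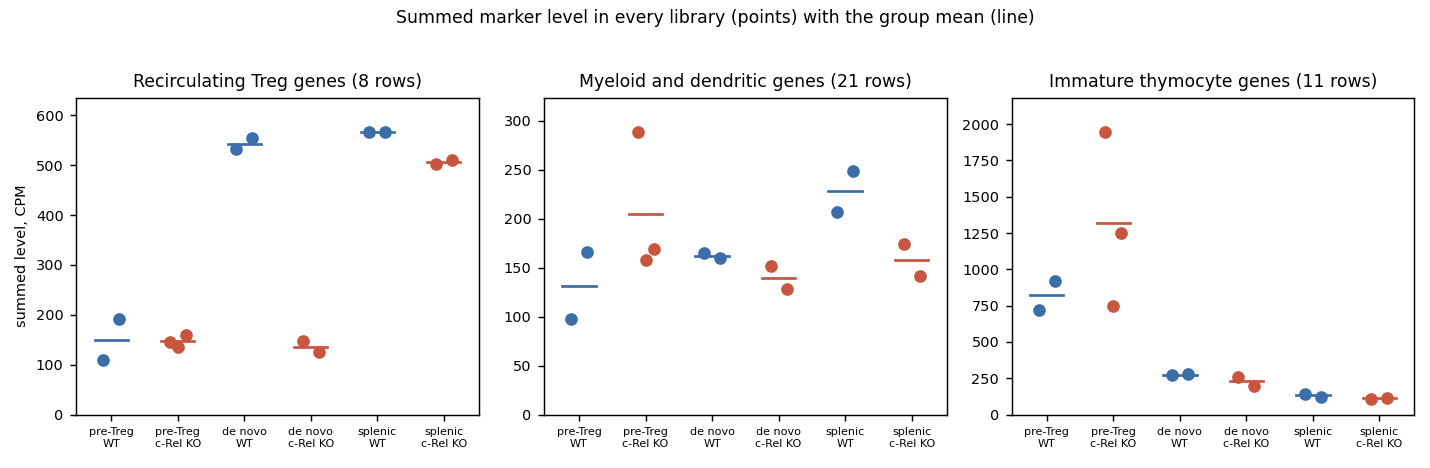
Summed level, in CPM (vertical axis, from 0), of marker lists for recirculating Tregs (8 rows), myeloid and dendritic cells (21 rows) and immature thymocytes (11 rows) in every library (points) with group means (lines), by stage and genotype (WT wild type, KO knockout). The recirculating Treg sum is 533 and 554 CPM in wild-type and 147 and 125 CPM in knockout de novo Tregs, and the myeloid sum is highest, at 289 CPM, in one knockout pre-Treg library.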

How the data were processed

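The values are the raw counts of reads per gene deposited by the authors, with no normalization; 47729 genes are listed for pre-Tregs and 22048 for de novo and for splenic Tregs. Per the submitters' processing notes, genome build GRCm38 was used with STAR 2.5.2, Subread 1.5.2, featureCounts, limma, Picard 2.9.0, MultiQC and FastQC; no label or header states the annotation release or strandedness. All 13 sample columns were used, and 0 others exist. Sample titles gave the groups and replicate numbers.

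Genotype effects were fitted within each stage's table in R 4.3.3 with edgeR 4.0.16 (TMM, filterByExpr with a minimum count of 10 and minimum total of 15, quasi-likelihood F-test). Stage comparisons and the interaction came from 1 fit of the 6 group means on the 22048 common genes, and the overall genotype effect from a fit with stage as covariate. P-values were adjusted by Benjamini-Hochberg over all genes tested, and genes were called under 0.05. CPM uses the total over the common genes, RPKM the deposited gene length, and intervals of counting error are not given. The fits were also run on counts simulated with their own estimated spread, so this cannot show whether that spread is right. The outcome is not reported here. Alternatives were RLE and upper-quartile scaling, no count filter, DESeq2 1.42.0, limma-voom (limma 3.58.1), a spread shared over groups, a replicate block and leaving out each library.

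The 10 genes and all lists were chosen with earlier results of these data known, so no list gives independent support. All 10 genes and Rel are named. Of further S100 genes, annexins, galectins, partners and cytoskeletal genes, up to 3 called genes per direction and list (by adjusted p) are named for each genotype comparison and up to 2 for each stage comparison, and the 5 genes most correlated with the members' mean z-scored log-CPM. Marker genes and Actg1 are named where their level bears on a result, Actg1 having been chosen after its values were seen.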

Additional observations from a re-analysis of the deposited data

How the results depend on the processing

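RLE and upper-quartile scaling changed no count of called members beyond 1.5 times. Without the count filter the interaction had 4 calls in place of 0. DESeq2 gave 1 call in pre-Tregs in place of 0 and 6 in the interaction, and limma-voom gave 1 in splenic Tregs in place of 2. With the spread shared over the 6 groups, de novo Tregs had 1 call in place of 4 and splenic Tregs 0. Without the pre-Tregs the fit over all stages had 2 calls in place of 0. With knockout pre-Treg replicate 2 as the one knockout pre-Treg library, an alternative chosen after seeing the data, the interaction had 8. Leaving out 1 library at a time gave between 0 and 1 calls in pre-Tregs, 2 and 4 in de novo Tregs, 0 and 6 in the spleen (0 on omitting wild-type replicate 2, 1 on omitting wild-type replicate 1, 6 on omitting knockout replicate 2), 0 and 0 over all stages, 0 and 5 in the interaction, 2 and 4 and then 2 and 3 in the wild-type steps, and 4 and 7 and then 5 and 5 in the knockout steps. Where only 1 library of a group was left, it was assumed to vary like the others. The cause of these changes was not tested.

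All signs that turned belonged to values not called with every library in. On leaving out 1 library at a time, log2 fold changes in pre-Tregs ran from -0.052 to 0.099 for S100a10, -0.031 to 0.30 for S100a13 and -0.073 to 0.41 for Vim, the last 2 negative without knockout replicate 2. In de novo Tregs Anxa2 ran from -0.013 to 9.18e-04. Among splenic Tregs S100a4 ran from -0.064 to 0.014, S100a6 from -0.38 to 0.094, S100a10 from -0.30 to 0.085, S100a11 from -0.57 to 0.030, S100a13 from -0.27 to 0.13 and Anxa1 from -0.28 to 0.17; those of S100a6, S100a10, S100a11 and S100a13 were positive without knockout replicate 1. S100a13 ran from -0.34 to 0.039 in the knockout step to spleen and from -0.035 to 0.30 in the difference of the knockout effect between de novo and pre-Tregs. In that difference S100a13 was -0.23 and Vim -0.21 with replicate 2 as the one knockout pre-Treg library.

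Same-numbered libraries did not deviate together (correlations of -0.168 and -0.158 in pre-Tregs, -0.0112 in de novo and -0.113 in splenic Tregs). With 2 libraries per group, as in de novo and splenic Tregs, both replicate numbers give the same value. The correlations therefore cannot exclude pairing, and the main fits used none. A replicate block gave 0, 6 and 2 called members in pre-Tregs, de novo and splenic Tregs and 0 in the fit over all stages and in the interaction, adding Lgals3 (adjusted p = 0.0119) and Anxa1 (0.0491) in de novo Tregs, and all genes called came to 77, 962, 361, 35 and 4. A block within stage could not be fitted for the stage comparisons; a block on the number shared over stages, chosen after seeing the data, gave 4 and 4 calls in the wild-type and 6 and 5 in the knockout steps. A crossed block in splenic Tregs gave 2 member calls and 803 over all genes.

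Over all genes, calls in pre-Tregs went from 0 to 88 with DESeq2, 14 without the filter, 71 with the shared spread and 64 without knockout replicate 2, in de novo Tregs from 766 to 100 with the shared spread, and in splenic Tregs from 168 to 510, 475 and 60 under the first 3 of these and up to 2508 without knockout replicate 1. Those of the fit over all stages went from 111 to 322 with DESeq2, 191 with limma-voom and 649 without pre-Tregs, those of the interaction from 21 to 497 with DESeq2 and 199 without the filter, and those of the wild-type step to spleen from 973 to 1554 with DESeq2. Without scaling, the median log2 fold change of all genes from pre-Tregs to de novo Tregs was -0.16 in wild type and -0.26 in the knockout. With TMM it was -0.0015 and -0.058, and upper-quartile scaling gave -0.11 in the knockout. Anxa1 in knockout de novo Tregs (12 and 2 counts) and S100a4 there (39 and 13) are limited by depth.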
